A study of Mus musculus with 8 samples.

Results

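Rara, Rarb, Rarg, Stra6, Dhrs3, Aldh1a2, Crabp1, Crabp2 and Cyp26a1 are 9 genes of the retinoic acid pathway in mouse embryonic stem cells (ESCs). They were taken by name and matched to the Ensembl identifiers of the deposited counts, which made 9 of 52550 genes listed. Rarb was too low to be tested, so 8 members were among the 20749 genes tested. Messenger RNA was sequenced in 8 libraries, with 2 libraries in each of 4 groups. The groups were control ESCs and ESCs without Dax1 (Nr0b1, an orphan nuclear receptor of the pluripotency network), each grown in 2i/LIF and in LIF/serum. The comparison of genotypes asked what loss of Dax1 changed in each pluripotency state, and the comparison of media asked how the states differed.

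Control and Dax1KO cells in 2i/LIF were in N2B27 medium with 1 μM of the MEK inhibitor PD0325901, 3 μM of the GSK3 inhibitor CHIR99021 and 10 ng/ml LIF, the cytokine that sustains self-renewal. Control and Dax1KO cells in LIF/serum were in DMEM with 15% fetal bovine serum and the same 10 ng/ml LIF, without the inhibitors. All 4 groups were grown on gelatin and were labelled as passage 3. None of the labels names added retinoic acid. The Dax1KO cells came from 1 colony, made in 2i/LIF with a lentivirus carrying Cas9, a guide RNA and a zeocin resistance gene, so effects of Dax1 and of this colony cannot be told apart. According to the study's methods and results, Dax1KO cells could not be kept growing in LIF/serum. Nothing in the labels says that the 2 libraries of a group came from separate cultures, so the p-values measure the spread between libraries, which may be technical.

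Retinol enters cells through the membrane receptor STRA6, is oxidized to retinaldehyde and then, by ALDH1A enzymes such as ALDH1A2, to retinoic acid. Retinoic acid binds the nuclear receptors RARα, RARβ and RARγ, which sit on DNA as dimers with RXR receptors, while CRABP1 and CRABP2 carry it within the cell and CYP26A1 oxidizes it for removal. Rarb, Cyp26a1, Dhrs3 and Stra6 are known to be induced by retinoic acid itself, and in ESCs retinoic acid drives exit from self-renewal towards neural and extraembryonic endoderm fates.

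Total counts lay between 35911384 and 37286251 per library. Dax1 had 456 and 300 counts in control cells in 2i/LIF and 5095 and 4689 in LIF/serum, against 0 and 0, and 14 and 6, in the Dax1KO libraries of the same media. The 10 ESC markers summed to 190508 to 234098 normalized counts in every library, but single markers differed between media. At the threshold given below, 4 were higher and 2 lower in 2i/LIF in control cells, beside 20.3% and 16.5% of all tested genes. In Dax1KO cells 2 were higher and 4 lower, beside 15.2% and 13.7%. Replicate 2 of the control cells in LIF/serum stood apart in its counts of long genes, with a slope of centred log2 expression on log2 gene length of -0.0899 against -0.0179 to 0.0365 in the other 7 libraries. The 1054 tested genes of chromosome 6 were shifted upwards as a whole in Dax1KO cells, their median log2 fold change being 0.44 in 2i/LIF and, for LIF/serum, 0.52, but no member lies on that chromosome.

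The sequences upstream of Rarb, Cyp26a1 and Rarg are shown because the first pair held the direct repeat through which retinoic acid receptors are known to act, and because Rarg had the highest count of any member, 12788 in a control library in LIF/serum. The sequences are from RefSeq in build GRCm38.p6, run 5′ to 3′ on the gene's own strand and hold the 250 bases before the annotated start. They cover chr14:16575477-16575726 on the minus strand for Rarb, chr19:37697558-37697807 on the plus strand for Cyp26a1 and chr15:102257523-102257772 on the minus strand for Rarg. Capitals mark matches, on either strand, to the receptor core motif AGGTCA or to 3 variants of it, which were chosen with the known Rarb element in mind. The variant GGTTCA opens that element, the variant AGTTCA closes it, and the remaining variant searched was GGGTCA.
Rarb: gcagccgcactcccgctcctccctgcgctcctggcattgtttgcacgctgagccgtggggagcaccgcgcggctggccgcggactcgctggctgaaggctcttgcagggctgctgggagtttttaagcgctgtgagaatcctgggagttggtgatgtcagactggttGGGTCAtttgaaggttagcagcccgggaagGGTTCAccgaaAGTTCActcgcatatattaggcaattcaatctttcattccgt
Cyp26a1: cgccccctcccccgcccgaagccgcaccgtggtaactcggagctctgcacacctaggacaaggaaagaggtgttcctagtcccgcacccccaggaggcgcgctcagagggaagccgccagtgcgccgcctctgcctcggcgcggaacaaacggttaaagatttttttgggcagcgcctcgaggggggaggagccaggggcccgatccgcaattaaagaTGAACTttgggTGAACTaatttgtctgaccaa
Rarg: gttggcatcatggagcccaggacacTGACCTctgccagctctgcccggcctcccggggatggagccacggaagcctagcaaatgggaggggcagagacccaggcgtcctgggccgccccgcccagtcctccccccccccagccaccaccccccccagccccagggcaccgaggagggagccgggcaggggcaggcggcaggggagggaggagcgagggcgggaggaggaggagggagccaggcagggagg
Promoters were searched from 250 bases before to 50 after the start, and 17 promoters of 8 members were in the table of 32851.

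Direct repeats of these motifs with a spacer of 5 bases were found in 32 of all promoters (0.0974%), and among the members in Rarb and Cyp26a1. In Rarb the repeat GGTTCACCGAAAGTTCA ran from -53 to -37 on the gene's strand, and in Cyp26a1 the repeat TGAACTTTGGGTGAACT ran from -32 to -16 on the opposite strand, counted from the start at 1. AGGTCA, found in 16.3% of promoters, occurred at -225 to -220 on the opposite strand in Rarg and at 34 to 39 in 1 of the promoters of Rara. Spacers of 1 and 2 bases, found in 0.222% and 0.268% of promoters, and the orphan receptor site TCAAGGTCA, found in 0.423%, had no match in a member's promoter. These matches describe letters in the sequence and no binding was measured here.

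Across the members, the medium went with more differences than the genotype. DEGs were called where the fold change reached 1.2 and the Benjamini-Hochberg adjusted p, over all tested genes, was 0.05 or less in edgeR's quasi-likelihood test, which gave every adjusted p below unless DESeq2 is named. Between media, 6 of 8 members were called in control cells and 4 of 8 in Dax1KO cells, beside 36.8% and 28.9% of all tested genes. Rara, Rarg, Stra6 and Cyp26a1 were lower in 2i/LIF in both cell lines, beside 16.5% of all tested genes lower in control cells and 13.7% in Dax1KO cells. Crabp1 and Crabp2 were higher in 2i/LIF in control cells, beside 20.3% of all tested genes, and 0 members were higher in Dax1KO cells, beside 15.2%. Between genotypes, 1 of 8 members was called in 2i/LIF (Crabp1, lower in Dax1KO cells) and 1 of 8 in LIF/serum (Stra6, higher in Dax1KO cells), beside 3.16% and 14.7% of all tested genes, so that the share in LIF/serum was near that of all genes. By direction, 1.51% of all tested genes were upregulated and 1.65% downregulated in 2i/LIF, and 8.87% were upregulated and 5.78% downregulated in LIF/serum. The median log2 fold change of the 8 tested members in Dax1KO cells was -0.27 in 2i/LIF and 0.51 in LIF/serum, against -0.01 and 0.01 for all genes. The genotype and medium comparisons share libraries and are not independent of each other. Without replicate 2 of the control cells in LIF/serum, the library that stood apart, the log2 fold changes between media in control cells were -1.36 for Rara, -3.31 for Rarg, -2.12 for Stra6, -1.89 for Cyp26a1 and 1.70 for Crabp1. These 5 stayed called, and Crabp2 did not (0.89, adjusted p = 0.0841). Stra6 in Dax1KO cells in LIF/serum was then at 2.12 (adjusted p = 0.0284).

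**Figure D1:**
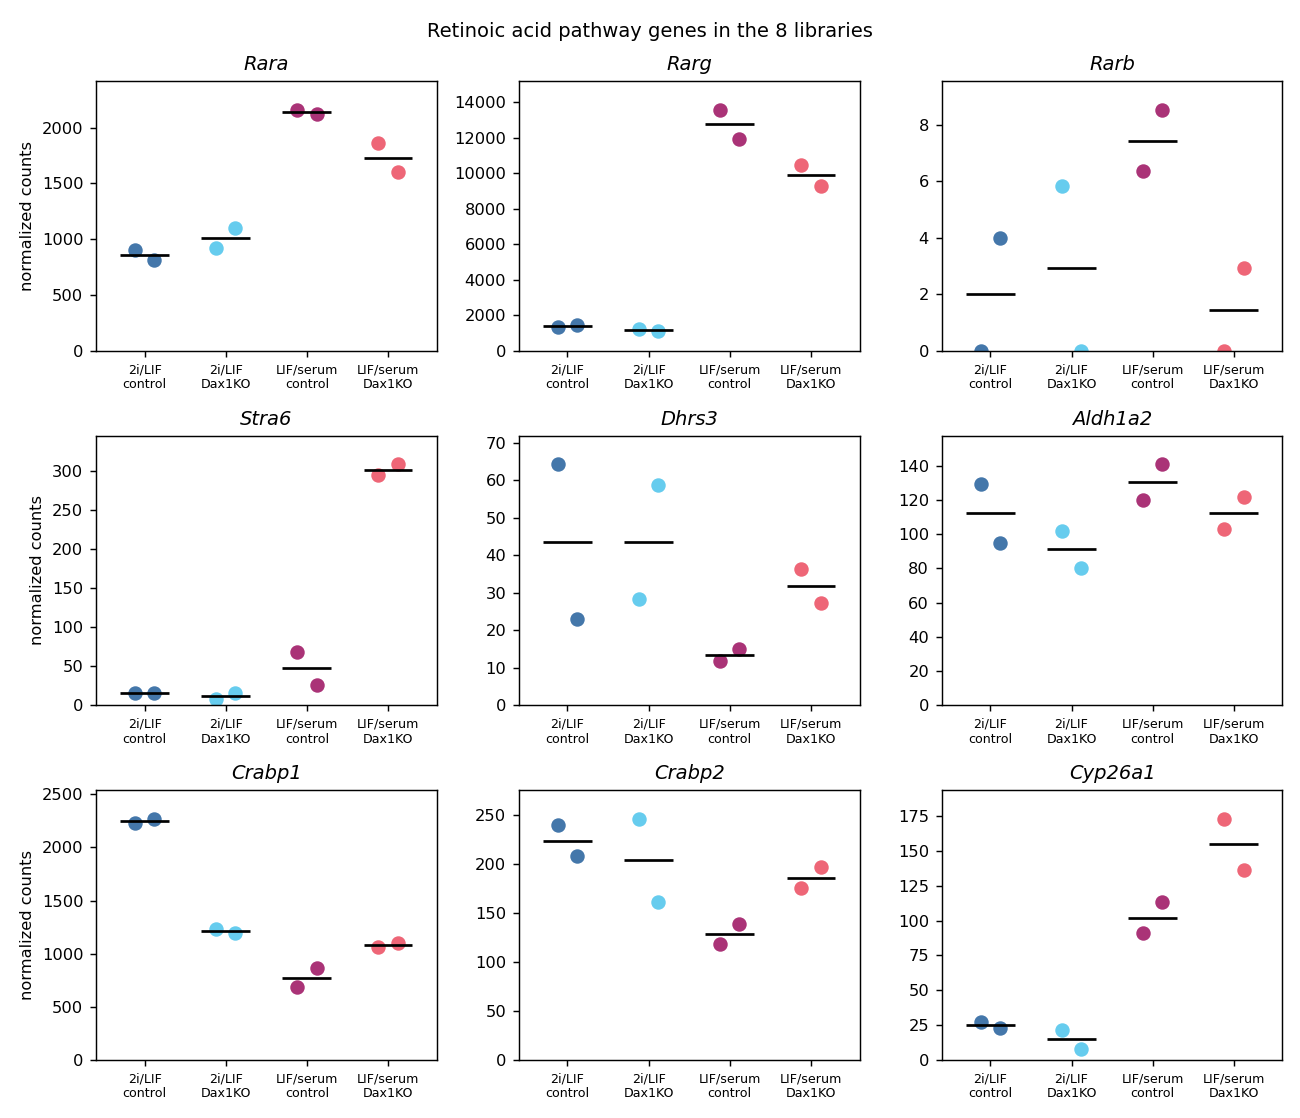
Normalized counts (y axis, each panel on its own linear scale from 0) of the 9 genes in the 4 groups (x axis), with a point for each of the 2 libraries of a group and a bar at their mean. Rarg, Cyp26a1, Rara and Stra6 were higher in all LIF/serum libraries than in all 2i/LIF libraries, Stra6 was highest in Dax1KO cells in LIF/serum, and Rarb had at most 8 raw counts. Of all tested genes, 68.6% in control and 68.9% in Dax1KO cells had no overlap between media, and the share over both cell lines at once was not computed.

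The receptor gene Rarg (ENSMUSG00000001288.14, chr15:102234938-102257517 in GRCm38, minus strand) encodes RARγ. It had normalized counts of 1355 and 1428 in control cells and 1208 and 1133 in Dax1KO cells in 2i/LIF, and of 13558 and 11949 in control cells and 10478 and 9278 in Dax1KO cells in LIF/serum. Normalized counts are scaled to a common library size. Between media, 68.6% of all tested genes in control and 68.9% in Dax1KO cells had no overlap of libraries. For Rarg, every LIF/serum library was far above every 2i/LIF library, and the lowest of the former was 6.50 times the highest of the latter. The mean was 1392 ± 52.1 (SD, n = 2 libraries, as for every mean below) in control cells in 2i/LIF and 12754 ± 1138 in LIF/serum. The level in 2i/LIF was 9.16-fold lower in control cells (log2 fold change -3.20 ± 0.126 standard error, adjusted p = 1.35e-05) and 8.44-fold lower in Dax1KO cells (-3.08 ± 0.126, adjusted p = 1.97e-05). Here and below, fewer expressing cells and less RNA per cell cannot be told apart in such bulk samples.

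The Dax1KO libraries lay below the control libraries for Rarg in both media, without overlap. With 2 libraries a group, 51.8% of all tested genes in 2i/LIF and 57.5% in LIF/serum had no overlap between genotypes. The differences, -0.25 ± 0.118 on the log2 scale in 2i/LIF (adjusted p = 0.323) and -0.37 ± 0.116 in LIF/serum (adjusted p = 0.0702), did not pass the threshold in edgeR. That in LIF/serum passed in 4 of 17 alternatives, among them DESeq2 with an adjusted p of 0.0404.

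Rara (ENSMUSG00000037992.16, chr11:98927818-98974942, plus strand), which encodes RARα, followed the same order of media with a smaller span. Its normalized counts were 903 and 812 in control cells and 921 and 1097 in Dax1KO cells in 2i/LIF, and 2159 and 2123 in control cells and 1859 and 1604 in Dax1KO cells in LIF/serum. The media did not overlap in either cell line, beside 68.6% of all tested genes in control and 68.9% in Dax1KO cells, and neither did the genotypes, whose libraries lay closer to each other within each medium. Rara was 2.50-fold lower in 2i/LIF in control cells (log2 fold change -1.32 ± 0.145, adjusted p = 0.00037) and 1.72-fold lower in Dax1KO cells (-0.78 ± 0.144, adjusted p = 0.00547). The second of these calls was lost without replicate 1 of the Dax1KO cells in 2i/LIF (-0.66, adjusted p = 0.053). Neither genotype difference passed (adjusted p = 0.464 in 2i/LIF and 0.19 in LIF/serum).

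Rarb (ENSMUSG00000017491.9, chr14:16430839-16819156, minus strand), a textbook early target of retinoic acid, had 0 and 4 counts in control cells and 6 and 0 in Dax1KO cells in 2i/LIF, and 6 and 8 in control cells and 0 and 3 in Dax1KO cells in LIF/serum. All libraries were near the limit of detection. At 0 counts, up to 3 counts are allowed by counting error. Rarb is also uncertain as a gene count, since it overlaps Top2b on the opposite strand (2552 to 3372 counts), 57.7% of its longest transcript matched Top2b transcripts at 95% identity or more, and no source says that reads were counted by strand.

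Scaled to exon length, the balance of receptor transcripts differed between the media. In normalized counts per kilobase of exon, Rarg was at 327 ± 12.2 and Rara at 197 ± 14.8 in control cells in 2i/LIF, against 2993 ± 267 and 490 ± 5.84 in LIF/serum. The ratio of Rarg to Rara per kilobase lay between 1.06 and 1.80 in the 4 libraries in 2i/LIF and between 5.77 and 6.43 in the 4 libraries in LIF/serum. Of the summed receptor levels per kilobase, Rarg made up 62.4% in control cells and 54.2% in Dax1KO cells in 2i/LIF. In LIF/serum its share was 85.9% and 85.4%.

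Stra6 (ENSMUSG00000032327.14, chr9:58063788-58153996, plus strand), the retinol uptake receptor, showed the largest change with genotype among the tested members. Its normalized counts were 16.0 and 16.0 in control cells and 7.78 and 15.6 in Dax1KO cells in 2i/LIF, and 68.9 and 25.6 in control cells and 296 and 309 in Dax1KO cells in LIF/serum. The 2 Dax1KO libraries in LIF/serum were high, and the control libraries there differed from each other more than the Dax1KO libraries did. In LIF/serum, Stra6 was 6.38-fold upregulated in Dax1KO cells (log2 fold change 2.67 ± 0.458, adjusted p = 0.0101). Without replicate 1 of the control cells in LIF/serum this value was 3.56 (adjusted p = 0.0112), and without replicate 2 of the Dax1KO cells it was 2.64 and missed the threshold (adjusted p = 0.0548).

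In 2i/LIF the genotype difference of Stra6 was -0.45 ± 0.561 (adjusted p = 0.767). The difference between the media in the effect of genotype, 3.12 ± 0.719 on the log2 scale, did not pass (adjusted p = 0.0659), but did in DESeq2 (adjusted p = 0.00411) and without replicate 1 of the control cells in LIF/serum (4.01, adjusted p = 0.034). In Dax1KO cells, Stra6 was 25.6-fold lower in 2i/LIF than in LIF/serum (log2 fold change -4.68 ± 0.524, adjusted p = 0.000545). In control cells it was 2.93-fold lower (-1.55 ± 0.503, adjusted p = 0.0426), a call that was lost in 11 of 16 alternatives, and without replicate 1 of the control cells in LIF/serum the value was -0.67 (adjusted p = 0.281).

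Markers of primitive endoderm, an extraembryonic lineage that ESC cultures can contain, moved in the same groups as Stra6. The 12 markers summed to 4836 to 5377 normalized counts in control cells and 3620 to 4757 in Dax1KO cells in 2i/LIF, and to 19208 to 34053 in control cells and 62006 to 81278 in Dax1KO cells in LIF/serum. No marker was at 0 in all 8 libraries. Of the 11 tested, 7 were upregulated and 0 downregulated in Dax1KO cells in LIF/serum, beside 8.87% and 5.78% of all tested genes. All 11 were lower in 2i/LIF in both cell lines, beside 16.5% of all tested genes in control and 13.7% in Dax1KO cells. The sum of 6 fibroblast markers was 458 to 486 in control cells and 1434 to 1498 in Dax1KO cells in LIF/serum, but 1858 to 2341 in control cells and 1235 to 1279 in Dax1KO cells in 2i/LIF, where Stra6 was low. The part of either marker list in the values of Stra6 was not tested. Stra6 overlaps Ccdc33 on the opposite strand, which had at most 27 counts in any library.

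**Figure D2:**
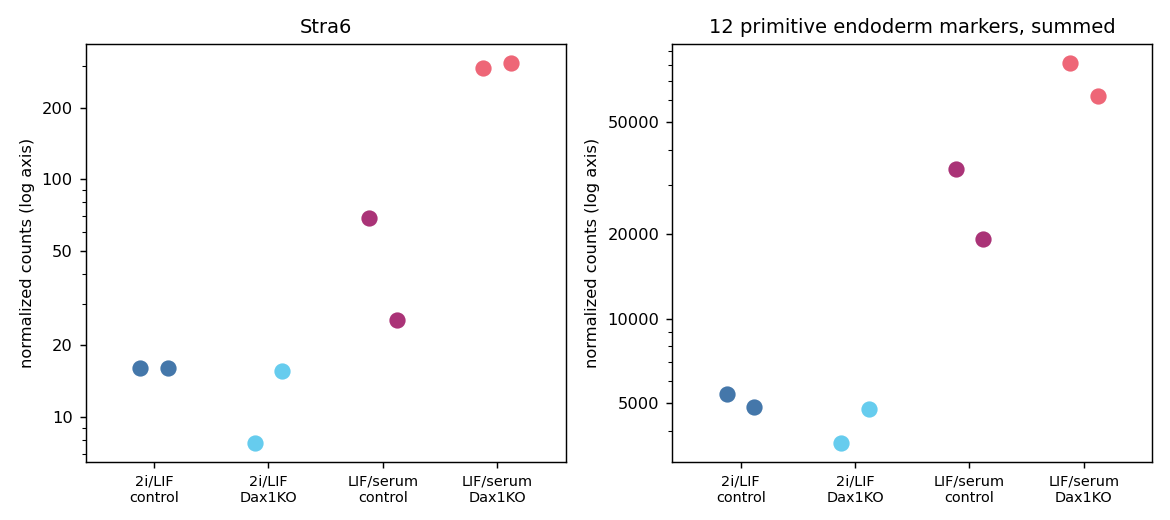
Normalized counts (y axes, logarithmic) of Stra6 (left) and of the sum of 12 primitive endoderm markers (right) in the 4 groups (x axis), with a point for each library. In LIF/serum the Dax1KO libraries lay above the control libraries in both panels, at 296 and 309 for Stra6 and at 62006 and 81278 for the markers, and all 2i/LIF libraries were lower.

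Dhrs3 (ENSMUSG00000066026.14, chr4:144892827-144928209, plus strand) encodes a reductase that turns retinaldehyde back into retinol. Its normalized counts were 64.2 and 23.0 in control cells and 28.2 and 58.6 in Dax1KO cells in 2i/LIF, and 11.7 and 14.9 in control cells and 36.4 and 27.3 in Dax1KO cells in LIF/serum. The libraries in 2i/LIF were widely spread and overlapped between genotypes, and control cells in LIF/serum were the lowest. No comparison of Dhrs3 passed the threshold. The level nearest to it was the higher one in 2i/LIF in control cells (log2 fold change 1.70 ± 0.617, adjusted p = 0.062), which passed without replicate 2 of those cells (2.22, adjusted p = 0.032) and fell to 0.79 without replicate 1 (adjusted p = 0.396).

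Aldh1a2 (ENSMUSG00000013584.5, chr9:71215789-71296243, plus strand), the retinoic acid synthesizing enzyme of the early embryo, was the flattest of the tested members, with group means within 1.43-fold. It had normalized counts of 129 and 95 in control cells and 102 and 80.1 in Dax1KO cells in 2i/LIF, and of 120 and 141 in control cells and 103 and 122 in Dax1KO cells in LIF/serum. The genotypes overlapped in both media. No difference was detectable (adjusted p between 0.448 and 0.95 over the 5 comparisons).

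Crabp1 (ENSMUSG00000032291.8, chr9:54764748-54773110, plus strand), a cytosolic retinoic acid carrier, had its highest level in control cells in 2i/LIF. Its normalized counts were 2230 and 2270 in control cells and 1231 and 1195 in Dax1KO cells in 2i/LIF, and 682 and 865 in control cells and 1060 and 1097 in Dax1KO cells in LIF/serum. The Dax1KO libraries were below the control libraries in 2i/LIF and above them in LIF/serum, without overlap in either, beside the 51.8% and 57.5% of all tested genes without overlap. In 2i/LIF, Crabp1 was 1.85-fold downregulated in Dax1KO cells (log2 fold change -0.89 ± 0.142, adjusted p = 0.0221). This value stayed between -0.91 and -0.84 in all alternatives, but the call was lost without any single library in 2i/LIF (adjusted p between 0.102 and 0.164) and with genes of low counts left in the fit (0.0601).

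In LIF/serum the genotype difference of Crabp1 was 0.48 ± 0.143 and missed the threshold (adjusted p = 0.0598), which it passed in DESeq2 (0.0315) and without replicate 2 of the control cells (0.65, adjusted p = 0.0397). The difference between media in the effect of genotype was 1.37 ± 0.202 on the log2 scale (LIF/serum minus 2i/LIF, adjusted p = 0.0204). Crabp1 was the member called in this test, 1 of 8 beside 2.87% of all tested genes (2.05% with a positive and 0.824% with a negative difference), and the call was lost in 7 of 16 alternatives. In control cells Crabp1 was 2.91-fold higher in 2i/LIF than in LIF/serum (1.54 ± 0.145, adjusted p = 0.000185). In Dax1KO cells the difference was 0.17 ± 0.142 (adjusted p = 0.42). The sum of the 6 fibroblast markers given above had the same directions as Crabp1 in these comparisons except between media in Dax1KO cells, and no marker was at 0 in all 8 libraries. Of the 4 tested, however, 3 had log2 fold changes above 0 in Dax1KO cells in 2i/LIF, with a median of 0.70, opposite to the sum. There 0 were upregulated and 1 downregulated, beside 1.51% and 1.65% of all tested genes. In LIF/serum 3 were above 0, with a median of 1.28, and 2 were upregulated and 0 downregulated, beside 8.87% and 5.78%. Thy1, named after its values were seen, was at -0.85 in 2i/LIF (adjusted p = 0.0271) and 1.63 in LIF/serum (adjusted p = 0.00147). The part of these markers in the values of Crabp1 was not tested.

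Crabp2 (ENSMUSG00000004885.5, chr3:87948666-87953376, plus strand), the carrier that delivers retinoic acid to the receptors, had normalized counts of 240 and 208 in control cells and 246 and 161 in Dax1KO cells in 2i/LIF, and of 119 and 139 in control cells and 175 and 197 in Dax1KO cells in LIF/serum. Control cells in LIF/serum were the lowest, and the other groups overlapped or lay close to each other. The level in control cells was 1.74-fold higher in 2i/LIF (log2 fold change 0.80 ± 0.256, adjusted p = 0.0414), a call lost in 10 of 17 alternatives. The genotype differences were -0.14 ± 0.252 in 2i/LIF (adjusted p = 0.86) and 0.53 ± 0.256 in LIF/serum (adjusted p = 0.204). Per kilobase of exon, the level of Crabp1 was 16.6 times that of Crabp2 in control cells in 2i/LIF and 9.56 to 9.91 times in the other groups.

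Cyp26a1 (ENSMUSG00000024987.5, chr19:37697798-37701536, plus strand), the enzyme that clears retinoic acid and whose upstream sequence holds the direct repeat shown above, was at a low level in 2i/LIF. Its normalized counts were 27.1 and 23.0 in control cells and 21.4 and 7.82 in Dax1KO cells in 2i/LIF, and 91.2 and 113 in control cells and 173 and 137 in Dax1KO cells in LIF/serum. Every LIF/serum library was above every 2i/LIF library, the lowest of the former at 3.37 times the highest of the latter, and the Dax1KO libraries were the most extreme in both media. The media did not overlap in 68.6% of all tested genes in control and 68.9% in Dax1KO cells. Cyp26a1 was 4.06-fold lower in 2i/LIF in control cells (log2 fold change -2.02 ± 0.421, adjusted p = 0.00711) and 10.5-fold lower in Dax1KO cells (-3.39 ± 0.446, adjusted p = 0.00114). The value in Dax1KO cells was -4.28 without replicate 1 of the Dax1KO cells in 2i/LIF (adjusted p = 0.0024), and both calls were kept in all 16 alternatives.

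The genotype differences of Cyp26a1 were -0.77 ± 0.462 in 2i/LIF (adjusted p = 0.45) and 0.60 ± 0.384 in LIF/serum (adjusted p = 0.333). Neither passed the threshold, and their difference, 1.37 ± 0.601, did not either (adjusted p = 0.266). The values in 2i/LIF and of the difference were -1.66 and 2.27 without replicate 1 of the Dax1KO cells in 2i/LIF and -0.23 and 0.83 without replicate 2, and were not called in either case. Rarb, the other member with a direct repeat of this spacing, stayed near the limit of detection in all groups, as given above. Rarg, Rara, Stra6 and Cyp26a1 were lower in 2i/LIF, where the sum of primitive endoderm markers was lower too, and the part of these markers was not tested. In LIF/serum that sum was higher in Dax1KO than in control cells. Of these genes, Stra6 (2.67, called) and Cyp26a1 (0.60, not called) had positive log2 fold changes in Dax1KO cells there. Rarg (-0.37) and Rara (-0.31) had negative ones that were not called.

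**Figure D3:**
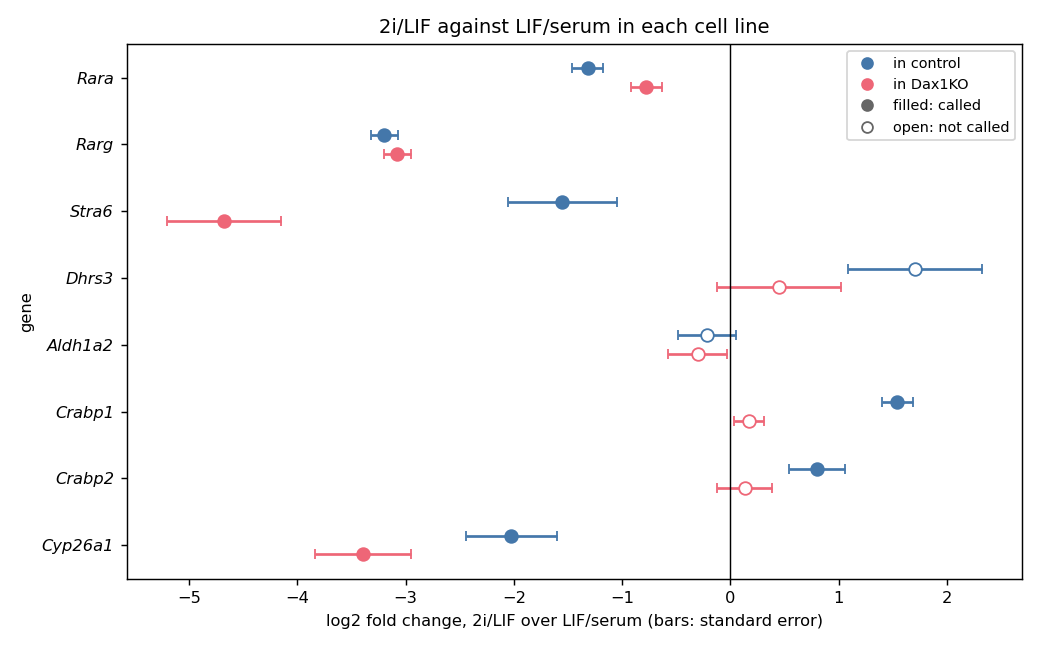
Log2 fold change of 2i/LIF over LIF/serum (x axis) of the 8 tested genes (y axis) in control cells (blue) and Dax1KO cells (red), with bars for the standard error and filled points for called genes. Rara, Rarg, Stra6 and Cyp26a1 lie to the left of 0 in both cell lines, and Crabp1 and Crabp2 lie to the right, filled in control cells alone.

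**Figure D4:**
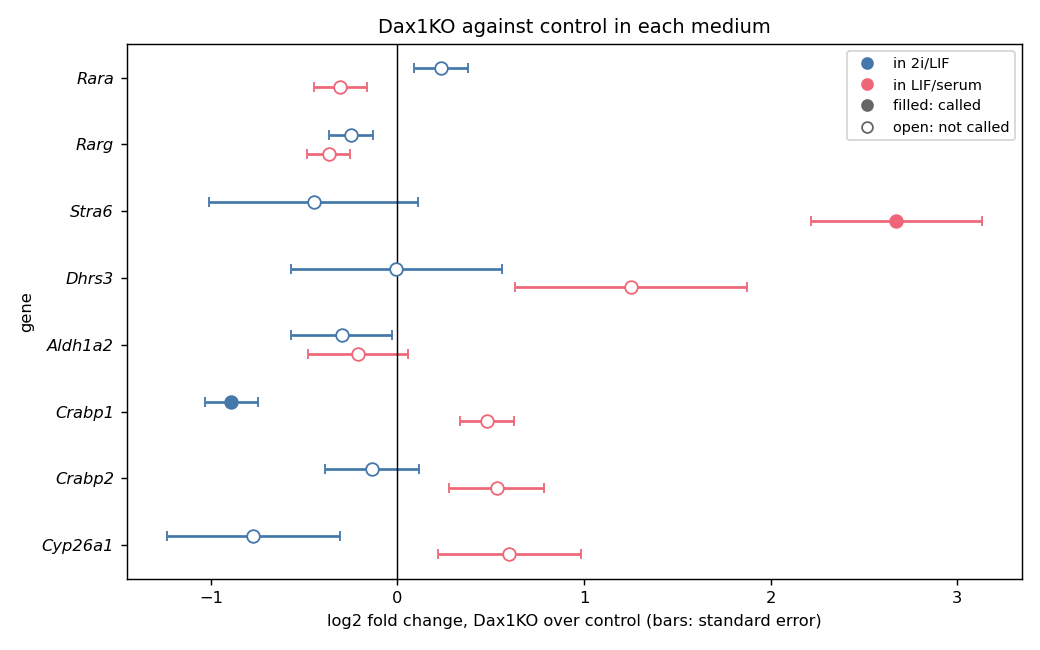
Log2 fold change of Dax1KO over control (x axis) of the 8 tested genes (y axis) in 2i/LIF (blue) and LIF/serum (red), with bars for the standard error and filled points for called genes. Crabp1 in 2i/LIF (-0.89) and Stra6 in LIF/serum (2.67) are the filled points.

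Ordered by normalized counts per kilobase of exon, Crabp1 led in 2i/LIF at 2805 ± 34.8 in control cells and 1513 ± 31.7 in Dax1KO cells, followed in both by Rarg, Rara, Crabp2 and Aldh1a2. In LIF/serum Rarg led, at 2993 ± 267 in control cells and 2318 ± 199 in Dax1KO cells, followed by Crabp1 at 964 ± 162 and 1345 ± 32.6. A carrier transcript was thus the most abundant of the members in 2i/LIF and a receptor transcript in LIF/serum. Dhrs3, Cyp26a1, Stra6 and Rarb were at or below 14.9 per kilobase in both 2i/LIF groups. Cyp26a1 reached 78.1 ± 13.1 and Stra6 51.9 ± 1.63 per kilobase in Dax1KO cells in LIF/serum, where both were above Aldh1a2 at 49.7 ± 5.80.

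The wider pathway was described with 39 further genes, of which 37 were tested. In Dax1KO cells, 2 were upregulated and 1 downregulated in 2i/LIF, beside 1.51% and 1.65% of all tested genes. In LIF/serum 5 were upregulated and 0 downregulated, beside 8.87% and 5.78% of all tested genes. The median log2 fold changes were 0.0067 in 2i/LIF and 0.42 in LIF/serum, against -0.01 and 0.01 for all genes.

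The RXR genes, whose products pair with the receptors above, were not called between genotypes. Rxra was not called in any comparison (adjusted p between 0.137 and 0.854). Rxrb was lower in 2i/LIF in control cells (log2 fold change -0.55 ± 0.142, adjusted p = 0.0175). Rxrg had 3 and 0 counts in control cells and 0 and 0 in Dax1KO cells in 2i/LIF, and 95 and 77 in control cells and 26 and 32 in Dax1KO cells in LIF/serum, and was called lower in 2i/LIF in both (adjusted p = 0.00168 and 0.00411).

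Of 10 further genes of retinoid uptake, storage and synthesis, 9 were tested, and Rpe65 was at 0 in every library. Aldh1a3, which like Aldh1a2 makes retinoic acid, was the called gene in Dax1KO cells in 2i/LIF. It had normalized counts of 87.2 and 94.0 in control cells and 497 and 513 in Dax1KO cells in 2i/LIF, and of 12.7 and 21.3 in control cells and 44.0 and 20.5 in Dax1KO cells in LIF/serum. It was upregulated in Dax1KO cells in 2i/LIF (log2 fold change 2.48 ± 0.347, adjusted p = 0.0152), the medium in which Aldh1a2 gave -0.30. The retinol carrier gene Rbp4 (1.00, adjusted p = 0.0411) and Rdh11 (0.73, adjusted p = 0.0231) were upregulated in Dax1KO cells in LIF/serum. Between media, Aldh1a3 was higher in 2i/LIF in control cells (2.40, adjusted p = 0.00244) and in Dax1KO cells (3.96, adjusted p = 0.000268). In control cells Rbp4 was higher in 2i/LIF (1.23, adjusted p = 0.00811). Lrat, whose product esterifies retinol, was higher in 2i/LIF in control cells (2.76, adjusted p = 0.00665) and in Dax1KO cells (2.15, adjusted p = 0.0204).

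The other Cyp26 genes, Cyp26b1 and Cyp26c1, had low levels. Cyp26b1, on chromosome 6, had group means of 15.9 to 30.5 normalized counts and Cyp26c1 of 3.19 to 17.6, and neither was called in any comparison. In 2i/LIF against LIF/serum the log2 fold changes of Cyp26b1 were 0.62 for control and -0.04 for Dax1KO cells, and those of Cyp26c1 were 1.21 and 0.85. Fabp5, which carries retinoic acid to other nuclear receptors, was higher in 2i/LIF in control cells (log2 fold change 1.54, adjusted p = 0.000587) and in Dax1KO cells (2.52, adjusted p = 0.000102).

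Of 15 further genes known to respond to retinoic acid, 14 were tested. Hoxb2, with 16 and 15 counts in control cells in 2i/LIF against 0 and 3 in LIF/serum (adjusted p = 0.0389), was higher in 2i/LIF. Stra8, on chromosome 6, was higher in 2i/LIF in control cells (log2 fold change 2.88, adjusted p = 0.000823) and in Dax1KO cells (2.82, adjusted p = 0.00103). Nr2f1 was higher in both as well (2.83, adjusted p = 0.000881, and 1.83, adjusted p = 0.00791), and so was Tgm2 (2.38, adjusted p = 8.40e-05, and 2.59, adjusted p = 7.48e-05). In Dax1KO cells in LIF/serum, Cdx1 (1.90, adjusted p = 0.0105) and Nrip1 (1.04, adjusted p = 0.00513) were upregulated. In 2i/LIF, Cdx1 was upregulated (2.39, adjusted p = 0.0145) and Meis2 downregulated (-1.57, adjusted p = 0.00962). Of 9 coregulator genes, Nrip1 and Ncoa1 (0.50, adjusted p = 0.0488) were upregulated in Dax1KO cells in LIF/serum and 0 in 2i/LIF, beside 8.87% and 1.51% of all tested genes. Between media, Nrip1 was higher in 2i/LIF in control cells (1.39) and in Dax1KO cells (0.56).

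**Figure D5:**
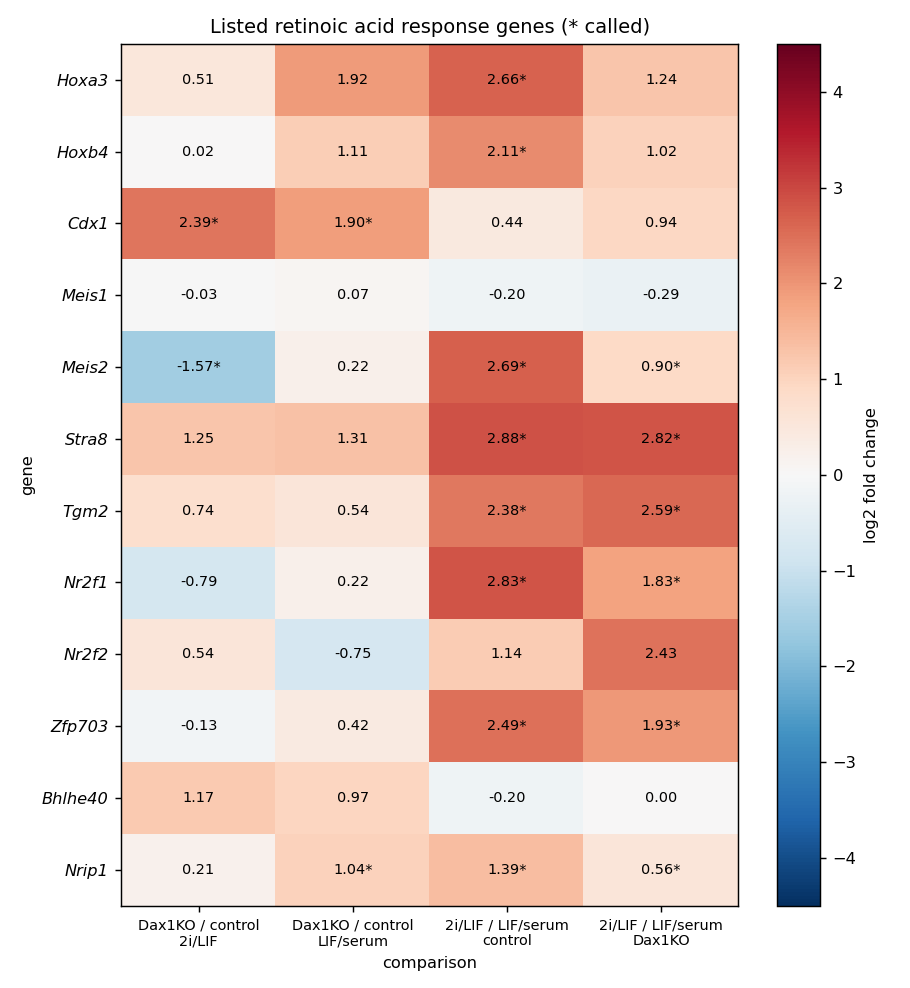
Log2 fold change (colour and printed value, asterisk for called genes) of the listed retinoic acid response genes (rows) in 4 comparisons (columns), leaving out Hoxa2 and Hoxb2, which were at 3 counts or fewer in a whole group. The highest value of the plot, 2.88, is in the third column, the media comparison of control cells, for Stra8.

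The genes most like the called members were named by the root mean square difference of centred log2 expression over the 8 libraries, as a description. Only tested genes with a mean expression close to that of the member and an SD over libraries above a fixed minimum were searched. These were 1816 genes for Rarg and up to 7324, for Stra6. Crabp2 itself, with an SD of 0.367, was below this minimum, so genes as flat as Crabp2 were not searched. The nearest genes are given here. They were Rab31 (0.0896), Lmnb2 (0.0959) and Gripap1 (0.103) for Rara, and Clstn3 (0.292), Bmp4 (0.32) and Manba (0.346) for Rarg. Stra6 was nearest to Cyp4x1 (0.504) and Flt1 (0.574), and Cyp26a1 to Hist1h4n (0.239), Gm17322 (0.301) and Gm18765 (0.316). Crabp1 was nearest to Peli2 (0.159) and Nek3 (0.17), and Crabp2 to Chrnb1 (0.211), Ccdc36 (0.231) and Srprb (0.241). Among the members themselves, Crabp1 and Crabp2 (0.366) were the closest pair of any 2, and Rarg was closer to Cyp26a1 (0.566) than to Rara (1.06). This measure is not scaled and so depends on the size of the changes as well as on their pattern. The SD over libraries was 0.367 for Crabp2, 0.606 for Crabp1 and 0.588 for Rara, against 1.68 for Rarg and 1.51 for Cyp26a1.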

How the data were processed

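Each library was of mRNA and was grouped by its labels. The authors deposited unnormalized counts, 1 whole number for each gene in each library. The submitters' processing notes name HISAT2 2.0.4, DESeq2 and mm10. The counting method, annotation and use of strand are not given in the sources used here. Of 52550 identifiers, 52403 were in GENCODE M21 of GRCm38, which gave symbols, positions and exon lengths. Low values piled up at 3 (11738 values, against 3938 at 4), so a small count may not equal that many fragments, and limits set by counts cover counting error only. Totals were 35911384 to 37286251 per library.

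Counts were filtered with filterByExpr (20749 genes), scaled by TMM and tested with edgeR 4.0.16 in R 4.3.3. The quasi-likelihood fit had 1 mean per group over all 4 groups (prior degrees of freedom 4.04, biological coefficient of variation 20.9%). Dax1KO was compared with control in each medium, these effects with each other, and 2i/LIF with LIF/serum in each cell line. Adjusted p-values follow Benjamini and Hochberg over all tested genes. Calls required an adjusted p of 0.05 or less and 1.2 fold, and for the difference of effects the adjusted p alone. Standard errors are the log2 fold change divided by the root of the F statistic. Transcripts were matched with blastn 2.17.0.

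The members and gene lists were chosen with earlier results of these data known. Further genes were named by rule, up to 3 called genes of each pathway list with the largest changes per direction and comparison, and all RXR and CYP26 genes. Also named were the 3 genes nearest to each called member, among tested genes close to it in mean expression and with an SD above a fixed minimum. Some genes that these lists and rules would name are not reported here. They include genes called higher and genes called lower in 2i/LIF. They were left out of the counts over the lists after the results were seen. These counts therefore give neither the balance of directions nor the share of called genes in the full lists.

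On simulated counts with planted changes, the steps recovered 25% of genes changed by 1 on the log2 scale in 2i/LIF (20095 genes) and 22% in LIF/serum (20084 genes), and 78% and 81% of those changed by 2. There were 9 false calls of 112 and 10 of 113. Each simulated gene had the same mean in all groups before changes were planted, and changes were planted only in genes above a minimum mean. Recovery for genes that are low in a single medium was therefore not measured. Alternatives were DESeq2 1.42.0, RLE factors, no filter, at least 10 counts in every library, a replicate block, counts divided by 3, separate fits, other fold thresholds and each library left out. A block within each medium and the length slope as a covariate were added after the data were seen.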

Additional observations from a re-analysis of the deposited data

Results flagged for a closer look

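The effect of Dax1KO differed between the media, by a test of the difference itself, in 1 of 8 tested members and in 1 of 37 further tested pathway genes, beside 2.87% of all tested genes, so that the share of these pathway genes was near that of all genes. The 37 do not include the genes left out after the results were seen, so the share in the full lists is not given. Each value is over 2 libraries a group (quasi-likelihood test in edgeR, Benjamini-Hochberg adjusted, LIF/serum minus 2i/LIF). For Crabp1 the difference was 1.37 on the log2 scale (adjusted p = 0.0204), with Dax1KO libraries below control in 2i/LIF and above it in LIF/serum, and the call was lost in 7 of 16 alternatives. The sum of 6 fibroblast markers had the same directions between genotypes. In 2i/LIF, however, 3 of the 4 tested markers had log2 fold changes above 0, with a median of 0.70. The part of these markers was not tested. For Meis2 the difference was 1.79 (adjusted p = 0.0226), from -1.57 in 2i/LIF to 0.22 in LIF/serum. Groups of 2 libraries were too small for a test for outlying libraries in single genes.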

How the results depend on the processing

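Of 662 alternative values of the single members, 596 kept their direction and side of the threshold, 35 lost a call, 13 gained one and 18 changed sign, none of the latter in a called value. The number of members called in Dax1KO cells in 2i/LIF was 0 without a filter and at 2 fold. In LIF/serum it was 3 in DESeq2, with the block within each medium and with the length slope. For the difference between media it was 0 without a filter, and 2 in DESeq2 and with the length slope. For media in Dax1KO cells it was 2 with at least 10 counts in every library, where 6 members were tested. With a library left out, the counts ran from 0 to 1 in 2i/LIF, 0 to 2 in LIF/serum, 0 to 2 for the difference, 4 to 5 for media in control cells and 3 to 4 in Dax1KO cells. The cause of these changes was not tested.

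For the 39 pathway genes, the count in 2i/LIF was 6 in DESeq2, 1 without a filter, 5 with counts divided by 3, in a separate fit and with the length slope, and 7 with the block within each medium. In LIF/serum it was 8 in DESeq2, 2 without a filter, 3 at 2 fold and 9 with the block within each medium. For the difference it was 3 in DESeq2, 0 without a filter and 2 with the replicate block and with the block within each medium. With a library left out it ran from 0 to 5 in 2i/LIF, 1 to 6 in LIF/serum, 0 to 3 for the difference, 12 to 17 for media in control cells and 5 to 11 in Dax1KO cells.

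Sign changes were in values near 0 or in widely spread libraries. Dhrs3 in 2i/LIF was 0.00443 in DESeq2, 0.00403 with RLE factors, 0.00124 with at least 10 counts, 0.0435 with the replicate block, 0.012 with counts divided by 3, 0.00549 in a separate fit and 0.0603 with the block within each medium, and from -0.63 to 0.91 with a library left out. Aldh1a2 between media was 0.0889 in control cells and 0.00571 in Dax1KO cells with the block within each medium. With a library left out, the ranges were -0.15 to 0.28 for the difference of Aldh1a2, -0.47 to 0.14 for Crabp2 in 2i/LIF, -0.20 to 0.40 for Crabp2 and -0.17 to 0.88 for Dhrs3 between media in Dax1KO cells.

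The replicate numbers did not pair the libraries: deviations of same-numbered libraries correlated at -0.015 to 0.108 between groups. In the fit with a replicate block, the called members were 1, 1, 1, 4 and 4 in the 5 comparisons (2i/LIF, LIF/serum, difference, media in control, media in Dax1KO cells), against 1, 1, 1, 6 and 4 without it. Over all genes, calls in 2i/LIF were 656, and 121 without a filter, 1455 in DESeq2 and 38 to 673 with a library left out. For LIF/serum they were 3041, 1743 in a separate fit and 728 to 2496 with a library left out, and for the difference 596, 119 without a filter, 1510 in DESeq2 and 36 to 344. With a library left out, calls between media in Dax1KO cells fell from 5999 to as few as 2986 and in control cells from 7641 to 5057. Depth limits Rarb, which had at most 8 counts, and 2 libraries a group limit every test.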

Other observations

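Of 27025 genes with a promoter sequence in the RefSeq table, 31 had a promoter with a direct repeat of the receptor motifs at a spacer of 5 bases, 17 were in the files and 8 were tested, Cyp26a1 among them. Between media in control cells 3 of the 8 were higher in 2i/LIF and 2 lower, beside 36.8% of all tested genes called. Cyp26a1 was among the lower ones (log2 fold change -2.02, adjusted p = 0.00711 in edgeR's quasi-likelihood test) and Blvrb, chosen after its values were seen, among the higher (1.71, adjusted p = 0.000192). Between media in Dax1KO cells 3 were higher in 2i/LIF and 1 lower, beside 28.9% called. Between genotypes, 1 was upregulated and 1 downregulated in 2i/LIF, beside 3.16% called. In LIF/serum 2 were upregulated and 1 downregulated, beside 14.7%. For the difference 0 were called, beside 2.87%.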
